A study of Macaca mulatta with 24 samples.

Results

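A group of CpG-dense regions that were neither free of methylation nor heavily methylated was examined in omental white adipose tissue of the rhesus macaque. The genome was divided into tiles of 1 kb, and a tile on chromosomes 1 to 20 was a member when it held at least 20 measured CpGs and when its mean methylation over all 24 animals was at least 10% and under 35%. These limits were met by 484 tiles, out of 5601 tiles with at least 20 CpGs and out of 152858 tiles with any measured CpG on these chromosomes. Below the lower limit were 4232 of the CpG-dense tiles and 885 were at or above the upper limit, so that the members lay between a large unmethylated and a smaller methylated class. The members were chosen by this measured level and by the number of CpGs, so both are a description. Just outside the lower limit were chr7:53786001-53787000 at 9.92% and chr4:116547001-116548000 at 9.97%, and just inside it chr19:4931001-4932000 at 10.0006% and chr4:45281001-45282000 at 10.104%. At the upper limit chr14:61099001-61100000 at 34.8% and chr8:142738001-142739000 at 34.9% were inside, and chr16:50442001-50443000 at 35.1% and chr19:41349001-41350000 at 35.2% were outside.

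In mammalian DNA, methylation is found mainly at CpG dinucleotides, and most CpGs are methylated. CpG islands are short stretches in which CpGs are frequent, many of them lie at promoters, and most stay unmethylated in healthy tissue. The flanks of an island, its shores, carry the change from the unmethylated island to the methylated surroundings, and shores are known for methylation that differs between tissues and individuals. A low mean over a tile can therefore stand for different patterns. The tile may straddle an island edge, with unmethylated CpGs on one side and methylated CpGs on the other, or all its CpGs may be methylated in a fraction of the DNA molecules, as at imprinted regions, in mixtures of cell types or where an island gains methylation.

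The animals were females that had carried an implant for 3 years. The labels give an age of 4 years, and the study's methods give an older age at biopsy. Each of the 4 groups had 6 animals. Controls (C) received cholesterol implants and a standard chow, the T group received testosterone with the same chow, the WSD group had cholesterol implants and a western-style diet rich in fat, and in T+WSD testosterone was combined with that diet. Biopsies of omental fat were analysed by reduced-representation bisulfite sequencing (RRBS), in which MspI fragments enriched for CpG-rich DNA are sequenced after bisulfite conversion, and each value is the percentage of reads methylated at a CpG in an animal. Whole tissue was used, so that a change in the mixture of cell types and a change within cells cannot be told apart, and the tissue label was not checked against marker genes here.

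One library stood apart. T 16 had values at 717554 CpGs, the fewest of all animals, and lacked 19.03% of the CpGs of the members, where C 5 lacked 7.88%, T+WSD 12 7.50% and the other animals between 0.420% and 4.78%. Results that it bears on are given with and without it. An animal that lacks CpGs of one side of an uneven tile gets a level that is shifted by what it lacks. Levels of single animals were therefore also computed with CpGs centred, that is, with each value taken relative to the mean of its CpG over animals, an alternative added after seeing the data. The animals of C and T+WSD are numbered 1 to 12, and those of T and WSD 13 to 24. The labels give no batch, and should the numbers follow one, it cannot be told apart from the comparisons of T with C and of WSD with C or from the interaction.

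The first question was whether the members were island edges or stretches of even partial methylation. CpGs of each tile were placed in order, each at its mean over animals, and the single break was sought that best divided them into a pair of sides with at least 5 CpGs each. A tile was called a step when its sides differed by at least 25 percentage points and the break took up at least 0.6 of the variance between CpGs. It was called uniform when it was no step and the standard deviation (SD) between its CpGs was at most 10 points, and mixed otherwise. By these limits 185 members (38.2%) were steps, 134 (27.7%) were uniform and 165 (34.1%) were mixed. The 3 classes graded into each other without a gap between them.

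**Figure D1:**
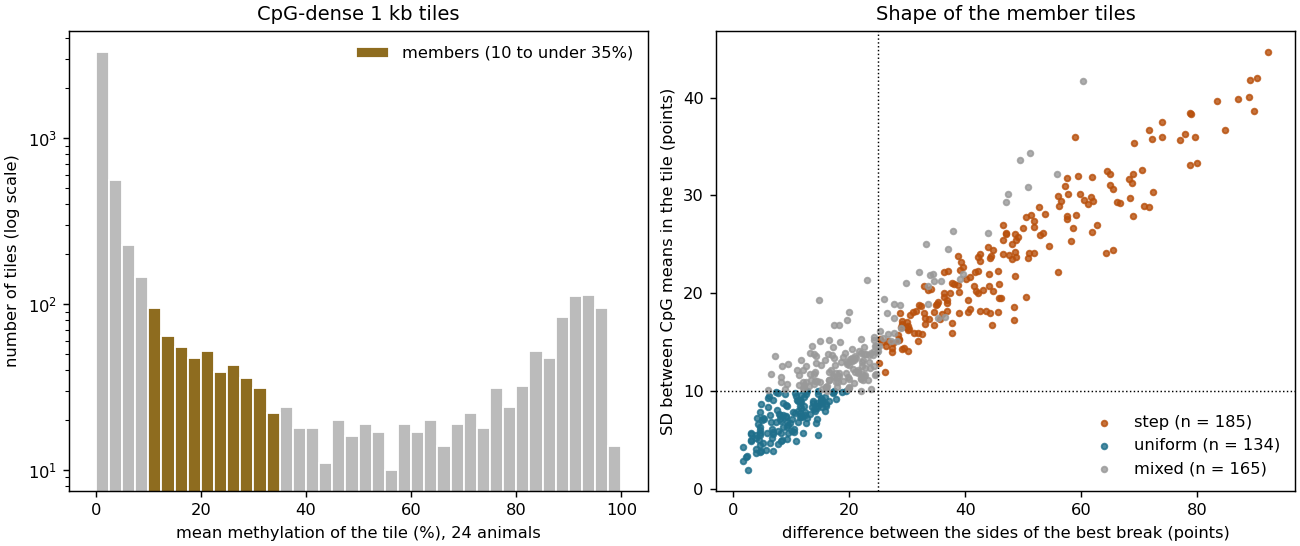
Left, number of CpG-dense tiles (log scale) by mean methylation over 24 animals in bins of 2.5 points, with the 484 members in brown; right, each member by the difference between the sides of its best break (points, horizontal) and the SD between its CpG means (points, vertical), with dotted lines at 25 and 10 points. The members lie on the falling edge of the unmethylated class, and the 185 step tiles continue the cloud of the 165 mixed and 134 uniform tiles toward larger differences.

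Uniform tiles were lower in level than steps, with a median of 15.4% against 20.4%, and mixed tiles had a median of 19.7%. Among the 159 members at 10 to 15%, 39.0% were uniform and 28.9% were steps. Among the 53 members at 30 to 35%, 15.1% were uniform and 41.5% were steps. Whether the fixed SD limit bears on the level of uniform tiles was not tested. The CpGs themselves showed what the mean of a tile hides. The shapes were defined on these same CpG means, so the following shares largely follow from the limits and are a description. In the median step tile 57.1% of the CpGs were under 10%, 23.8% were at 35% or more and only 19.05% had a level within the limits of the rule, whereas in the median uniform tile 71.4% of the CpGs were within them. The median member held 25 CpGs spread over 563 bp, and the range was 20 to 85 CpGs.

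Members were found on all 20 chromosomes. Chromosome 19 held 70 members, or 14.1% of its 495 CpG-dense tiles, while on the other chromosomes the share ran from 4.14% on chromosome 3 to 11.2% on chromosome 12. Of the members on chromosome 19, 27 were steps, 21 uniform and 22 mixed. Among the members 13 pairs touched, and none of these joined a pair of steps. Many neighbouring tiles were not measured, and how many pairs touch among as many other tiles was not counted.

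In step tiles a nearly unmethylated side met a partly methylated one. The low side had a median of 6.11% and the high side of 54.1%, and the median step was 45.7 points. The low side was under 10% in 137 of 185 tiles and under 5% in 82. The high side reached 60% in 62, and 48 tiles had both a low side under 10% and a high side of at least 60%. In 126 tiles every CpG of the high side lay above every CpG of the low side. The methylation rose rightward along the chromosome in 97 tiles and leftward in 88. Since the break was chosen for the difference between its sides, these sizes are a description.

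The break was sought again in the 6 C animals alone, which gave 185 steps, of which 171 were also steps over all animals and 150 of these at the same position. The C animals had helped to set the break over all animals, so this overlap is a description. At the breaks found in C the median step was 47.2 points in C and 44.7 points in the 18 other animals, which had no part in setting those breaks, and the median tile kept 96.2% of its C step. In 178 of these 185 tiles the sign was the same in all of these other animals with a value. When the break was sought in each animal separately, 3480 of 4417 breaks (78.8%) fell within 50 bp of the break over all animals, which each of these animals had helped to set. At that same break the median step of the groups was 47.5 points for C, 45.3 for T, 45.3 for WSD and 44.9 for T+WSD, and without T 16 it was 44.7 for T.

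The position of a break was known only as well as the measured CpGs allowed. The median gap between the CpGs on either side of the break was 41 bp, 96 tiles had a gap of at most 50 bp, and 67 tiles had one of more than 100 bp. CpGs were closer together on the unmethylated side, with a median spacing of 7 bp between measured CpGs against 12 bp on the high side. The spacing was shorter on the low side in 131 tiles, shorter on the high side in 45 and equal in 9. Only CpGs on sequenced MspI fragments count in these spacings.

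The tiles next to a step continued its sides. Of the measured neighbours of steps 2 were themselves members and were left out here. The tile next to the low side was then measured in 97 cases, with a median of 2.76%, and was under 10% in 76. The tile next to the high side was measured in 64, with a median of 76.3%, and was at least 60% in 42. Both were measured for 36 steps, and in 34 of these the one beside the high side was the more methylated. Of the neighbours of uniform tiles 13 were members and were left out, since their level was fixed by the rule. The median over the 99 that remained was 16.5%, and 36 were under 10%, 34 between 10 and 35% and 18 at 60% or more. The medians were 15.9% on the lower and 20.9% on the higher side. Where both were measured, the neighbour on the side of the weakly higher CpGs was above the other one in 8 of 16 uniform tiles, and both were between 10 and 35% in 5. Mixed tiles were intermediate, with medians of 5.46% on the lower and 39.7% on the higher side once 11 members were left out.

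**Figure D2:**
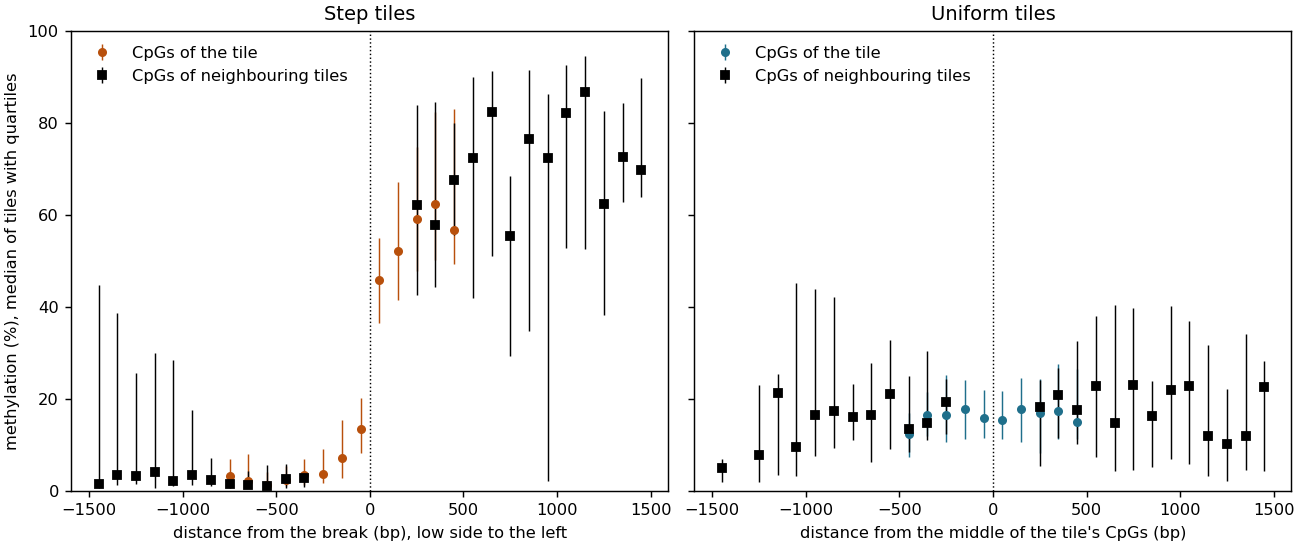
Median methylation (%) with quartiles over tiles in bins of 100 bp, by distance (bp) from the break in step tiles, turned so that the low side lies to the left, and from the middle of the CpGs in uniform tiles, which were not turned; coloured circles are CpGs of the members, black squares are CpGs of neighbouring tiles, a few of them members too, and bins with fewer than 10 tiles are left out. In step tiles the median goes from 13.5% in the last bin before the break to 46.0% in the first bin after it, and in uniform tiles the medians inside the members stay between 12.3% and 17.8%.

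Seen by distance from the break, the change was not a single jump between flat levels. In bins of 100 bp the median over tiles was 3.71% around 250 bp before the break, 7.09% around 150 bp and 13.5% in the last bin. It was 46.0% in the first bin after the break, 52.1% in the next and 59.2% in the one after that. In neighbouring tiles the bins centred 550 to 950 bp after the break had medians from 55.3% to 82.4%, each from 13 to 20 tiles, and those at the same distances before it had medians from 1.10% to 3.38%, each from 20 to 34 tiles. Uniform tiles were not turned by their sides, so opposite gradients cancel in their profile, and their flatness follows from the limit on the SD between CpGs. At their own best break the sides of uniform tiles differed by a median of 9.41 points, with quartiles of 6.23 and 12.6 points.

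The 4 largest steps with a gap of at most 50 bp show the range of forms. In chr19:41248001-41249000 the 22 CpGs of the low side averaged 3.44% and the 10 CpGs of the high side 82.4%, across a gap of 4 bp. The tile next to its low side was at 0.345% and the one next to its high side at 83.8%, so the step continued on both sides. Its level was nearly the same in all animals, from 25.7% to 33.5%, and the highest value was that of T 16. The high side exceeded the low side by at least 72.1 points in each of the 24 animals.

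In chr13:42733001-42734000, with 39 CpGs, 31 CpGs averaged 8.21% and 8 CpGs 87.8%. This tile varied more. With CpGs centred its level ran from 20.6% in WSD 20 to 40.7% in T+WSD 8, the latter from the low side alone, while the plain means reached down to 6.76% in T 18, which had values at only 1 of the 8 CpGs of the high side, and the single-animal step ran from 23.4 to 90.8 points in the 23 animals that had values on both sides. In chr10:91088001-91089000 the sides were at 7.57% and 86.3%, 18 bp apart. Here both neighbouring tiles were methylated, at 89.0% and 96.2%, unlike those around the step on chromosome 19. In chr16:19538001-19539000 the sides were at 6.11% and 83.2%, and with CpGs centred its levels ran only from 21.2% in T+WSD 8 to 27.8% in T 13. The plain mean of 2.05% in T 14 came from an animal with values at 17 of 20 CpGs of the low side and at 0 of 6 of the high side. In that tile odd- and even-numbered CpGs did not move together over animals (r = -0.026).

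**Figure D3:**
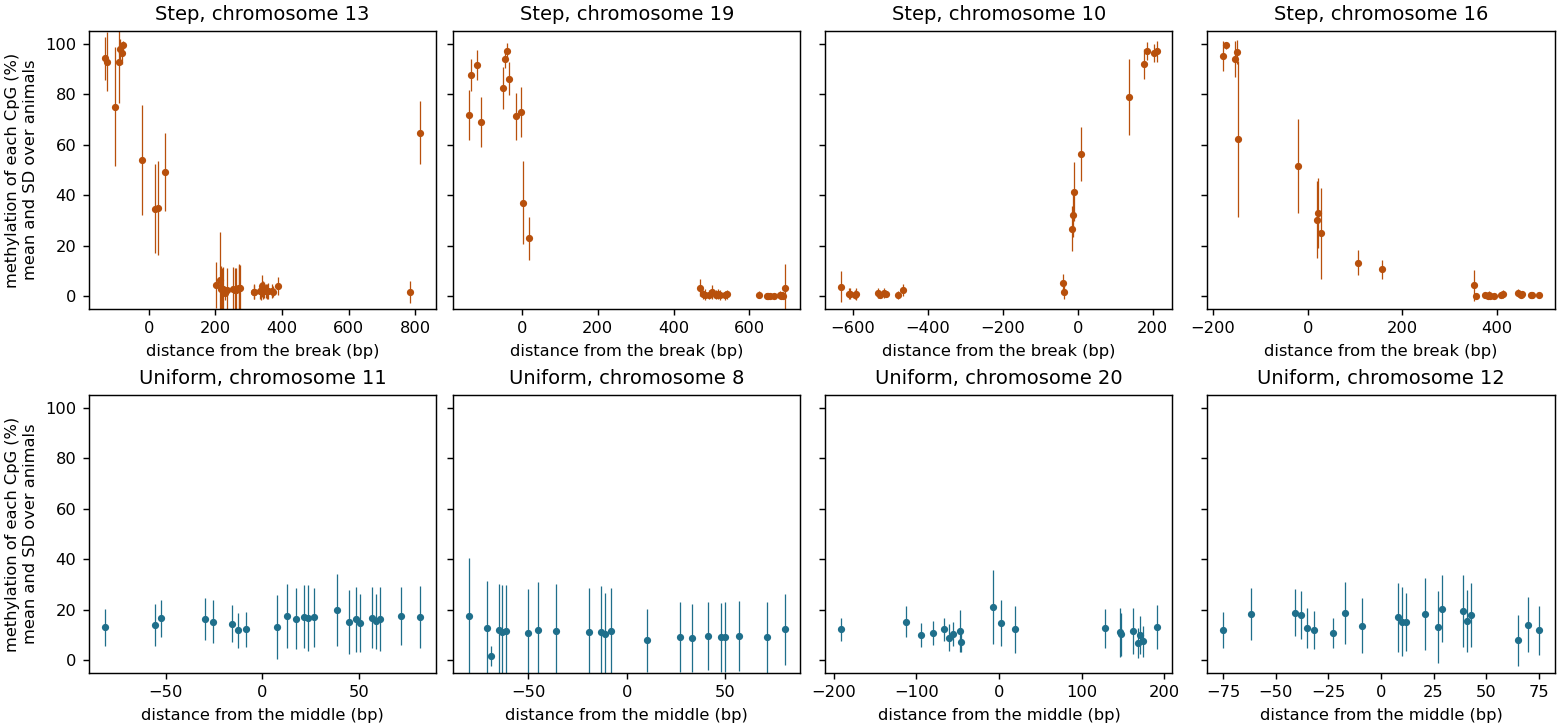
Methylation of each CpG (%, mean and SD over animals) by distance (bp) from the break in the 4 step tiles with the largest difference and a gap of at most 50 bp (top), and from the middle of the CpGs in the 4 uniform tiles with the smallest SD between CpGs (bottom). In the top row high sides of 82.4% to 87.8% and low sides of 3.44% to 8.21% are joined by CpGs of intermediate level near the break, with a single distant CpG at 64.8% on the low side on chromosome 13, and in the bottom row the SD between CpGs is 1.91 to 3.36 points while the bars between animals are wide.

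A uniform tile, even in its means over animals, was not even between animals. In chr11:56532001-56533000 the 23 CpGs lay between 11.9% and 19.8% with an SD of only 1.91 points, and the animals ran from 3.25% to 31.1%. The group values were 6.13% to 28.4% in C with a median of 9.14%, 3.25% to 30.5% in T with a median of 13.9%, 8.78% to 30.7% in WSD with a median of 11.4%, and 11.5% to 31.1% in T+WSD with a median of 15.7%. The 4 groups overlapped widely, and odd and even CpGs rose and fell together over the animals (r = 0.988, n = 24). The tile was less even within animals than over them. Its 9 CpGs to the left and 14 to the right correlated at only 0.397 over the 24 animals, and the difference between right and left ran from -14.1 to 40.3 points. By group means the left was below the right in C (11.6% and 14.5%), T (11.9% and 18.7%) and T+WSD (14.8% and 20.7%). In WSD the left mean was above the right, at 18.02% and 12.9%. The right was above the left in only 9 of the 24 animals, so these means show no direction shared by the animals.

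The tile chr8:55968001-55969000 had an SD between CpGs of 2.77 points and a mean of 10.4%, but no animal was near that mean. In 17 animals its level was between 0.285% and 1.86%, and in 7 animals it was between 27.7% and 39.5%. The 7 animals were C 1, C 4, T 13, WSD 19, T+WSD 7, T+WSD 10 and T+WSD 11, so each group held animals of both kinds. This was the largest gap between neighbouring animals among the members, 25.9 points, with at least 3 animals required on each side. A gap of at least 10 points was found in 29 members, of which 11 were uniform, 12 were steps and 6 were mixed. With CpGs centred it was found in 17 members, of which 10 were uniform, 3 were steps and 4 were mixed. The values of the other uniform tiles of this set were less split. They ran from 6.41% to 18.7% in chr20:29278001-29279000 and from 2.66% to 28.7% in chr12:100997001-100998000.

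The spread between animals was then compared between the shapes, since the rule used only the mean over all animals. The SD over 24 animals had a median of 4.72 points in steps, 6.31 in uniform and 5.29 in mixed tiles. In CpG-dense tiles under 10% it was 0.761 points, in those at 35 to under 65% it was 7.71 points and in those at 65% or more 2.49 points. As the spread changes with the level, uniform tiles and steps were also set side by side within bands of level. The median SD was 4.52 points in uniform tiles and 3.45 in steps at 10 to 15%, 7.86 against 4.38 at 15 to 20%, and 8.13 against 4.97 at 20 to 25%. It was 9.35 against 5.81 at 25 to 30% and 10.3 against 7.59 at 30 to 35%, the last from 8 uniform tiles and 22 steps. The uniform tiles thus had the larger median in each of the 5 bands, and no test was made, since tiles of the same animals are not replicates. The bands match the mean of a tile and not the levels of its CpGs. In the median step most CpGs were under 10%, where the spread is small, so shape and CpG level cannot be told apart here.

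Part of the spread of steps moved with the CpGs that an animal lacked. With CpGs centred the median SD was 3.49 points in steps, 6.24 in uniform and 5.14 in mixed tiles, and without T 16 it was 4.43, 6.35 and 4.87 points. The median of uniform tiles was above that of steps in each of the 5 bands with CpGs centred and in each without T 16. At 10 to 15% it was 4.44 against 2.40 points with CpGs centred and 4.36 against 3.43 without T 16, and at 30 to 35% it was 10.5 against 6.92 and 10.3 against 7.30.

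Much of this spread was shared by the CpGs of a tile. The median correlation over 24 animals between the means of odd- and even-numbered CpGs was 0.941 in uniform, 0.834 in mixed and 0.809 in step tiles. It was 0.904 in CpG-dense tiles at 35 to under 65%, 0.533 in those under 10% and 0.438 in those at 65% or more. Without T 16 these correlations were 0.943, 0.849, 0.814, 0.897, 0.548 and 0.448. Odd and even CpGs of a tile share the library and may share reads, and the reads behind the values are not given. Inside steps the methylated side varied more than the low side. Its median SD over animals was 8.51 points against 2.56 on the low side, it was the larger in 174 of 185 tiles, and the sides of a tile were only weakly related over animals (median r = 0.244, n up to 24). Without T 16 the median SDs were 8.31 and 2.405 points, and the high side was the larger in 176. The sides differ in level and the spread changes with the level, so side and level cannot be told apart here. The SDs of the sides were not computed with CpGs centred. With all animals the higher side also had the larger SD in 109 of 134 uniform and in 145 of 165 mixed tiles. In uniform tiles the sides of the best break correlated at a median of 0.4955, or 0.550 without T 16, so the sides of a uniform tile were also only partly related.

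Few members were of low partial methylation in each animal. All 24 animals lay between 10 and 35% in 80 members, of which 48 were steps, 27 mixed and 5 uniform. With CpGs centred the number was 122, with 79 steps, 35 mixed and 8 uniform. The means of all 4 groups lay within the limits in 367 members. With plain levels the smallest spreads belonged to chr11:133302001-133303000, a step tile at 17.5% to 21.2% in all animals with sides at 0.498% and 85.3%, and to chr15:83574001-83575000, a mixed tile at 8.18% to 13.4%. The step of the former lay somewhere in a gap of 688 bp. With CpGs centred the smallest SDs were those of chr1:18661001-18662000, at 0.689 points, and of chr19:47522001-47523000, at 0.727 points.

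The largest spread was in chr1:122827001-122828000, a mixed tile with 28 CpGs. Its level ran from 3.40% in T 14 to 97.1% in WSD 24, which had values at only 4 of the 20 CpGs of the low side and was at 85.7% with CpGs centred. The median was 26.0% for C, 16.2% for T, 37.1% for WSD and 33.1% for T+WSD, and the groups overlapped. In chr12:90899001-90900000, a step tile, 6 animals were between 1.02% and 6.97% and the other 18 between 20.8% and 58.8%. Of the 6 low animals C 2, C 5 and WSD 21 had no value at the 7 CpGs of the high side, and with CpGs centred they were at 13.5%, 16.9% and 10.9%. The others, T 17, T+WSD 9 and T+WSD 10, were at 2.77%, 2.20% and 3.79% with values on both sides, and the animals then formed no separate pair of sets. This tile was also one of 5 step tiles in which the high side was not above the low side in at least 1 animal. Those 5 were exceptions, and in 180 of 185 tiles each animal with values on both sides had the higher methylation on the same side.

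Over the members as a whole the groups had nearly the same mean. The mean over all members was 19.2% to 20.6% in C with a median of 19.5%, 16.6% to 22.1% in T with a median of 18.9%, 16.9% to 23.4% in WSD with a median of 20.1%, and 18.1% to 23.3% in T+WSD with a median of 18.9%. The mean and SD over 6 animals were 19.7% ± 0.530 for C, 19.5% ± 2.13 for T, 20.01% ± 2.22 for WSD and 19.99% ± 2.27 for T+WSD. The 4 groups overlapped, and the 6 C animals lay inside the range of each treated group. Without T 16 the mean of T was 18.997% ± 1.99 (SD, n = 5). No test was made on this score over the members. The SD of C was also below those of the treated groups outside the members, at 1.27 points against 3.35 to 3.90 in CpG-dense tiles at 35 to under 65%. In single members C was not the group closest to the tile means. The median distance of an animal from the mean of a tile averaged 3.08 points for C, 3.31 for T, 2.92 for WSD and 3.12 for T+WSD. T 16 was at 5.29 points, the other T animals ran from 2.39 to 3.60 and the C animals from 2.46 to 3.84.

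The animals with high values were found in more than one group. WSD 20 had 23.4%, T+WSD 8 23.3%, T+WSD 12 22.5%, T 13 22.1% and T 16 21.9%, and the lowest were T 18 with 16.6% and WSD 22 with 16.9%. WSD 20 lay over 10 points above the median animal in 85 members and over 10 points below it in 12. For T+WSD 8 these counts were 84 and 21, for T 13 72 and 11, and for T+WSD 12 75 and 9. For C 1 they were 59 and 37. T 16 had 86 above and 29 below, together with the largest share of missing CpGs. For the remaining 18 animals the count above ran from 5 to 48. With CpGs centred the counts above and below were 80 and 7 in WSD 20, 84 and 21 in T+WSD 8, 68 and 5 in T 13, 64 and 5 in T+WSD 12, 58 and 33 in C 1 and 66 and 19 in T 16, and the count above ran from 5 to 42 in the remaining animals.

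Among these animals WSD 20, T+WSD 8 and T 13 were also high in CpG-dense tiles outside the members. Over all measured CpGs they were at 50.6%, 50.8% and 49.3%, where all animals ran from 47.9% to 51.2%. In CpG-dense tiles under 10% the mean was 3.08% in WSD 20, 3.06% in T+WSD 8, 2.74% in T 13 and 2.26% in C 1, while the other 20 animals lay between 1.53% and 2.02%. T+WSD 12 was at 1.98% and T 16 at 1.86%. On the low sides of steps the highest were again WSD 20 with 10.7%, T+WSD 8 with 9.53% and T 13 with 9.25%, followed by T+WSD 12 with 8.39%, and C 1 had 7.73%. On the high sides T+WSD 12 was first with 59.7% and T 16 second with 58.8%, followed by WSD 20 with 58.4% and T+WSD 8 with 58.2%, and T 13 had 56.2%. In CpG-dense tiles at 35 to under 65% T 16 was highest with 56.0%, T+WSD 8 and WSD 20 had 54.1% each, T+WSD 12 53.4% and T 13 53.0%, and the lowest was WSD 22 with 44.4%. WSD 20, T+WSD 8 and T 13 lacked 3.11%, 1.91% and 3.31% of the member CpGs, which is within the range of the remaining animals. In CpG-dense tiles at 65% or more these 3 animals had 88.2% to 88.3%, where all animals ran from 85.9% to 88.6%. What sets these animals apart was not tested.

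**Figure D4:**
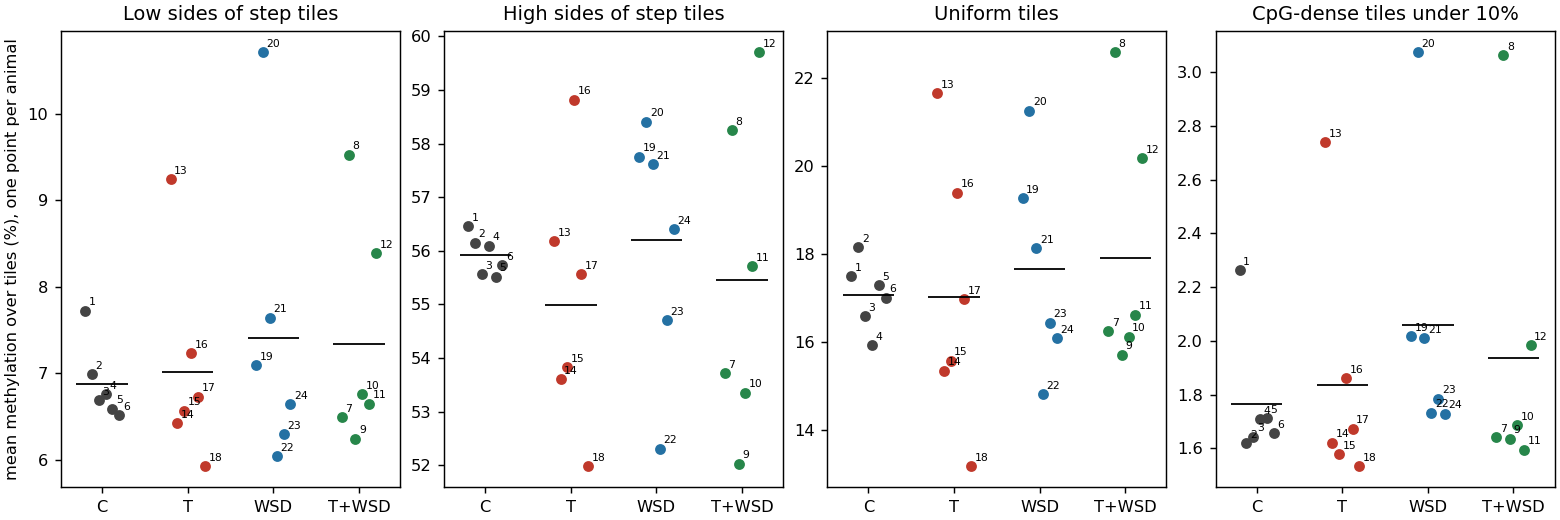
Mean methylation (%) of each animal over the low sides of the 185 step tiles, their high sides, the 134 uniform tiles and the 4232 CpG-dense tiles under 10%; points are animals with their number, black lines are group means, and the vertical axes differ and do not start at 0. WSD 20, T+WSD 8 and T 13 stand above the other animals on the low sides, at 9.25% to 10.7%, and in the tiles under 10%, at 2.74% to 3.08%, and belong to 3 different groups.

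In a few single tiles WSD 20, T+WSD 8 and T 13 stood out together with C 1. Over the members C 1 was the highest animal in 29 tiles and the lowest in 36. The 4 highest animals were C 1, T 13, WSD 20 and T+WSD 8 in 13 of 484 members. The next most frequent sets of 4 animals were highest in 4 members each. Such sets were not counted outside the members. With CpGs centred the count was again 13, and the next was 5. In chr2:90919001-90920000, a uniform tile, these 4 had 47.8%, 48.1%, 55.9% and 60.9%, and the other 20 animals ran from 0.223% to 29.7%. In chr7:165986001-165987000, also uniform, they had 40.6%, 36.1%, 42.3% and 52.3% against 0% to 19.2%. Both tiles were chosen after their values were seen. Each group held 1 of the 4 animals. Over the 479 members with a value in all animals the first principal component of the arcsine-transformed levels held 19.3% of the variance, the second 11.9% and the third 9.41%. T+WSD 8, WSD 20 and T 13 had the highest scores on the first component, at 2.23, 2.07 and 1.48, C 1 was apart on the second, at 2.10, where the next animal, T 18, had 0.91, and T 16 was apart on the third, at 2.56. Without T 16 the first 3 components held 21.1%, 12.9% and 7.88%, and the scores of T+WSD 8, WSD 20 and T 13 on the first were 2.25, 2.09 and 1.51. C 1 was still apart on the second, at 2.04, followed by T 18 at 0.89. A single member was related only loosely to the mean of the others (median r = 0.256 over 24 animals, 0.250 without T 16), which all share the same libraries.

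Differences between groups were tested by limma on all 100864 tiles of the series with at least 3 CpGs. A tile was called when its Benjamini-Hochberg adjusted p was under 0.05 and its group means differed by more than 10 points. The comparisons of the treated groups share the 6 C animals.

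No member passed the test in T or in WSD. In T against C limma called 0 of 484 members, where the background was 0.00793% of all tiles, and 28 members (5.79%) had an unadjusted p under 0.05 against 6.72% of all tiles. In WSD against C the count was also 0, with a background of 0.00397%, and 32 members (6.61%) had an unadjusted p under 0.05 against 7.44%. The median difference was -0.14 points in T and 0.31 points in WSD, and over all tiles it was -0.35 and -0.15. Differences of over 10 points were present in 9 members (1.86%) in T and in 15 (3.10%) in WSD but did not pass the test, and over all tiles the shares were 3.24% and 3.63%. Without T 16 limma again called 0 members in T and in WSD, and 19 members (3.93%) in T had an unadjusted p under 0.05 against 6.28% of all tiles.

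In the combination 4 members were called lower and 0 higher. In T+WSD against C limma called 4 members (0.826%), where the background was 0.206% of all tiles, and in single directions 0.127% for lower and 0.0793% for higher methylation. By their CpG means over all animals 2 of these 4 tiles were uniform and 2 were mixed. These means include the lowered T+WSD animals, and in C alone 2 were steps, 1 was mixed and 1 was uniform. Among the CpG-dense tiles outside the limits 0 of 4232 below 10% and 2 of 885 at 35% or more were called. An unadjusted p under 0.05 was found in 89 members (18.4%), against 10.9% of all tiles. Of these, 48 members were higher and 41 lower in T+WSD, beside 3.18% of all tiles higher and 7.75% lower. In the neighbouring classes the count was 109 of 4232 tiles below 10% and 119 of 885 at 35% or more. The share over all tiles includes tiles of few CpGs, and whether the precision of their means bears on it was not tested. With at least 5 CpGs in a tile the shares were 19.2% of members and 10.98% of all tiles. The median difference over members was 0.03 points against -0.38 over all tiles.

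The mean that chose the members includes the C and T+WSD animals, so the choice and this comparison share values. Of the 4 called tiles 2 had a C mean above the upper limit, and 1 was above the lower limit only through C. As an alternative added after seeing the data, tiles were chosen by the same limits from the T and WSD animals alone, which gave 492 tiles, of which 467 were members. Of these 492 tiles 3 (0.610%) were called lower in T+WSD than in C and 0 higher, and these 3 were the members on chromosomes 10, 13 and 16. An unadjusted p under 0.05 was found in 90 (18.3%), with 48 higher and 42 lower.

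Of the 4 calls 3 were close to the threshold, with an adjusted p of 0.0442 to 0.0492, and for chr13:45901001-45902000 it was 0.0175. All 4 were lost on the logit scale, where 20 of all tiles were called, and when only C and T+WSD were fitted, where 33 were. Leaving out C 1, C 3 or T+WSD 8 left 0 calls among the members and 10, 26 and 29 among all tiles, beside 208 with all animals. Leaving out any single animal gave 0 to 6 among the members and 10 to 321 among all tiles. Without C 4, C 5, T+WSD 9, T+WSD 10, T+WSD 12, T 14, T 15, T 17, T 18 or WSD 23 the count was 1, beside 29 to 162 of all tiles, and without T+WSD 7, T 13 or WSD 20 it was 2, beside 134 to 191. Animals of T and WSD enter this comparison only through the shared estimate of the spread. Without T 16 it was 4, beside 294. The share of members with an unadjusted p under 0.05 was 14.9% without C 1 and 14.3% without T+WSD 8, beside 8.86% and 9.77% of all tiles.

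The strongest of them was chr13:45901001-45902000, a tile with 20 CpGs over 467 bp that was uniform over all animals and mixed in C alone. Its level was 34.6% to 48.9% in C with a median of 42.7%, and 17.1% to 30.1% in T+WSD with a median of 23.02%. Both groups were separate, as the highest T+WSD animal lay below the lowest C animal. In T it was 32.1% to 41.2% with a median of 36.5%, and in WSD 20.4% to 34.3% with a median of 30.6%. The T animals overlapped with C, and the WSD animals lay below all C animals. The difference between T+WSD and C was -18.9 points (41.9% ± 4.86 in C and 23.1% ± 6.05 in T+WSD, SD, n = 6 each), with an adjusted p of 0.0175 in limma. The C and T means, at 41.9% and 36.7%, were above the upper limit of the rule, so the tile was a member only because WSD and T+WSD were lower. Of its 20 CpGs 19 were lower in T+WSD than in C. The decline was on the side of the tile with the higher level, which was at 49.2% in C and 24.2% in T+WSD, while the other side was at 22.99% and 19.9%. The neighbouring tile on that other side was at 9.77%. Without C 1, C 3 or T+WSD 8 the adjusted p was 0.0609, 0.0505 and 0.0549.

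This tile was also the only member called for the main effect of WSD, the mean of the effect of WSD on cholesterol and on testosterone implants. The background there was 0.0129% of all tiles, or 13 tiles, and 63 members (13.02%) had an unadjusted p under 0.05 against 9.42% of all tiles. The difference was -13.5 points with an adjusted p of 0.0293 in limma, and it was -13.5 points in WSD against C (adjusted p = 0.254). With CpGs measured in all animals the main effect was -8.92 points (adjusted p = 0.213), and on the logit scale the adjusted p was 0.114, so the call was lost in both. Leaving out single animals moved the adjusted p from 0.0225 to 0.0749, and it was over 0.05 in 13 of 24 cases. The count of members for this effect was 1 without T 16, beside 17 of all tiles, and 2 without WSD 24, beside 42. It was 0, beside 1 to 7 of all tiles, without C 1, C 3, C 4, T 13, T 14, T 17, T 18, WSD 20, WSD 21, WSD 22, T+WSD 8, T+WSD 9 or T+WSD 10.

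In chr10:1884001-1885000, with 23 CpGs, mixed over all animals and a step in C alone, the levels were 28.9% to 55.1% in C with a median of 37.3% and 17.01% to 26.5% in T+WSD with a median of 22.4%, and the groups did not overlap. T+WSD 9 and T+WSD 11 had values at 9 of the 15 CpGs of the high side, and with CpGs centred they were at 28.2% and 32.1%, so that the groups then overlapped with C 2 at 28.9%. C 1 was the highest animal. The difference was -16.9 points (39.5% ± 9.46 in C and 22.6% ± 3.45 in T+WSD, SD, n = 6 each, limma adjusted p = 0.0492), and without C 1 it was -13.7 points (adjusted p = 0.131). With CpGs centred it was -15.9 points and no longer called (adjusted p = 0.0750). All 23 CpGs were lower in T+WSD. The C mean was above the upper limit, so that the tile was a member only through the treated groups. The means were also lower in T, at 27.0% ± 3.67, and in WSD, at 29.0% ± 7.25, but neither was called.

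In chr1:60738001-60739000, a uniform tile with 29 CpGs, the levels were 9.76% to 36.9% in C with a median of 19.03% and 2.24% to 11.2% in T+WSD with a median of 6.92%. The groups overlapped, since C 2 had 9.76%. Of the 4 group means only that of C was above 10%, so the tile met the lower limit through the C animals, and its difference is a description that the choice of members favoured. The difference was -14.0 points (20.6% ± 9.73 in C and 6.65% ± 3.20 in T+WSD, SD, n = 6 each, limma adjusted p = 0.0473), and without C 1 it was -10.7 points (adjusted p = 0.121). The means were 9.49% ± 1.06 in T and 7.87% ± 3.66 in WSD, and neither was called.

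In chr16:57309001-57310000, with 24 CpGs, mixed over all animals and a step in C alone, the levels were 20.1% to 30.1% in C with a median of 25.1% and 9.58% to 15.5% in T+WSD with a median of 11.5%, with no overlap. It was the smallest of the 4 differences, -12.9 points (24.9996% ± 3.58 in C and 12.1% ± 2.56 in T+WSD, SD, n = 6 each, limma adjusted p = 0.0442), and it was named after its values were seen. The WSD animals were split here, with 4 at 9.85% to 13.3% and WSD 19 and WSD 24 at 25.1% and 29.3%. The tile lay between a neighbour at 0.653% and one at 68.9%, and its high side was at 33.4% in C and 16.4% in T+WSD.

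**Figure D5:**
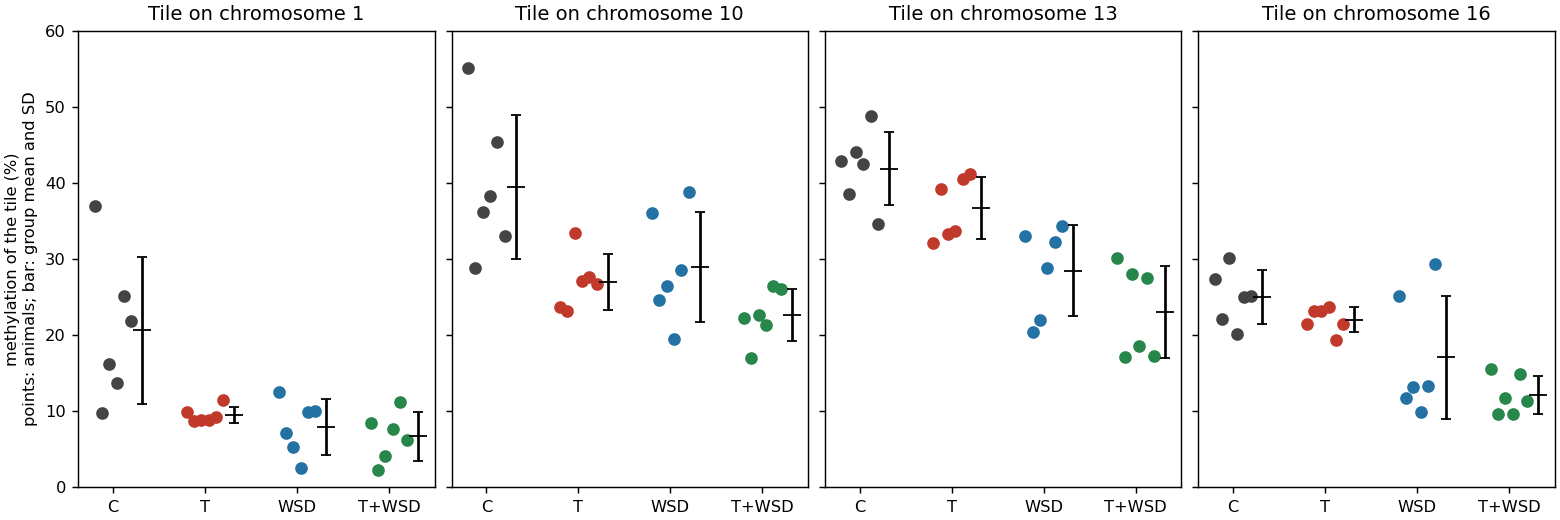
Methylation (%) of the 4 members called lower in T+WSD than in C, with 1 point per animal and the group mean with its SD beside the points. In these plain means of the tiles on chromosomes 10, 13 and 16 all T+WSD animals lie below all C animals, and on chromosome 1 the lowest C animal, at 9.76%, lies within the range of T+WSD.

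No member showed a passing interaction of T and WSD, which asks whether T acts differently on WSD than on chow. Limma called 0 members, with a background of 0.0178% of all tiles, and 24 members (4.96%) had an unadjusted p under 0.05 against 5.61% of all tiles. For the 4 tiles named above the adjusted p of the interaction was 0.895 to 0.992. The main effect of T was called in 0 members and in 0% of all tiles, with 40 members (8.26%) at an unadjusted p under 0.05 against 7.64% of all tiles.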

How the data were processed

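RRBS libraries of 24 animals were analysed, 6 in each of 4 groups taken from the labels. The authors trimmed reads with Trim Galore 0.4.2, aligned them with Bismark 0.16.1 to rheMac8 and kept CpGs with a coverage of at least 10 reads in at least 4 of 6 animals per group. The values the authors deposited are percent methylation per CpG and animal, with no scaling between animals. Reads per value are not given, so no confidence intervals were made. Every value column belonged to 1 animal, and none of 276 pairs of animals had identical columns. A missing value was left out of the mean. Means with CpGs centred used each value minus the mean of its CpG over animals, plus the tile mean, and were added after seeing the data, like the omission of T 16 from the spreads, of members from the neighbours and the choice of tiles from T and WSD alone.

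Tiles ran from position 1 in steps of 1000 bp. Adjacent positions, which may be the strands of 1 CpG, were kept as separate CpGs, and merging them left 32 members with fewer than 20 CpGs. Tile means were transformed by the arcsine of the square root and fitted with limma 3.58.1 in R 4.3.3 in one model of the 4 groups. The prior had 3.24 degrees of freedom. The vectorised fit was checked against lmFit on all tiles, with the same calls, and, like the search for breaks, tested on simulated data. Breaks and spreads were computed in Python 3.11.15 (scipy 1.17.1, numpy 2.4.6). The p-values compare a group difference with the spread between animals within the groups, which limma moves toward a common prior. Sampling of reads and missing CpGs also enter that spread.

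Named tiles were the 4 largest steps with a gap of at most 50 bp, the 4 most uniform tiles, up to 3 called members per direction and contrast, the 2 largest and 2 smallest SDs over animals and the 2 tiles on each side of a limit. The members and these lists were chosen with earlier results of these data known. Alternatives covered the grid, strands, missing values, limits of the shapes, transformation, samples in the fit, prior, thresholds and the omission of each animal. No genome or annotation of rheMac8 was used here, so genes and sequences of the tiles are not given.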

Additional observations from a re-analysis of the deposited data

Results flagged for a closer look

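Among the 6 measures over members and the 4 called tiles, each in 4 groups, 40 sets of 6 animals were searched for a single animal far from the rest, and chance alone marks about 1 in 20 such sets. One was found. On the low sides of the step tiles WSD 20 had 10.7%, and the next WSD animal had 7.64%, a distance of 0.658 of the range of the group. The mean of WSD was 7.40% ± 1.72 (SD, n = 6). The share of missing CpGs in WSD 20 was 3.11%, and the cause was not tested.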

How the results depend on the processing

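The number of members (484) was 475 on a grid shifted by 500 bp, 456 with adjacent positions merged, 480 from C alone and 481 to 487 without single animals. It was 885 with at least 15 CpGs, 144 with at least 30, and 185 when only CpGs with a value in all animals counted, which leaves fewer CpGs per tile. Step tiles (185) ranged from 134 to 240 over 10 settings of the limits and from 183 to 188 without single animals. Uniform tiles (134) ranged from 82, with an SD limit of 8 points, to 195 over the same settings, and from 130 to 137 without single animals.

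No member was called in T, in WSD, for the interaction or for the main effect of T under any of the alternatives tried. The 4 calls in T+WSD, beside 208 over all tiles, became 0 (20) on the logit scale, 0 (33) when only C and T+WSD were fitted, 1 (52) with a prior that follows the level and 10 (658) at an adjusted p under 0.1, with the calls over all tiles in parentheses. On untransformed percentages they were 3 (292). They were 0 to 6 without single animals, and 10 to 321 over all tiles. The single call for the main effect of WSD became 0 on the logit scale (2 over all tiles) and 0 with CpGs measured in all animals (36 of 60803 tiles), and 0 to 2 without single animals. The cause was not tested. Each of the 4 named differences kept its direction in all of these fits. For chr13:45901001-45902000 it was -20.3 to -17.5 points without single animals, with an adjusted p of 0.0142 to 0.0609, and the call was lost in 3 of 24 fits. For the tile on chromosome 10 it was lost in 17, for that on chromosome 1 in 17 and for that on chromosome 16 in 14. Another 9 alternatives, among them the fit of only C and T+WSD, omitted no single animal. Over these 9 the calls on chromosomes 13, 10, 1 and 16 were lost in 3, 4, 5 and 3. The difference on chromosome 13 then ran from -18.9 to -14.5 points, with a limma adjusted p of 0.0133 to 0.0903. No paired analysis was possible because the groups share no animal numbers. The reads behind each percentage are not known, which limits how much of the spread can be read as a difference between animals.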
